A study of Mus musculus with 25 samples.

Results

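The genes described here are the Wnt ligands, the Frizzled, Lrp, Ror and Lgr receptors, the R-spondins, the secreted Wnt inhibitors and 3 genes of the beta-catenin branch inside the cell (Axin2, a scaffold of the complex that breaks down beta-catenin, and the nuclear factors Lef1 and Tcf7). They were picked by gene symbol from the deposited expression table, which gave 42 of 20870 genes: 9 ligands, 10 Frizzled receptors, 4 Lrp and Ror receptors, 6 R-spondins and Lgr receptors, 10 secreted inhibitors and these 3 genes. RNA was sequenced from mouse heart tissue cut out of frozen sections with a laser, either the sinoatrial node (SAN), which paces the heart, or the right atrium (RA) beside it. One set of 18 libraries came from Hcn4-GFP mice on a mixed background and held 3 libraries of each tissue at each of 3 stages: E14.5 (embryonic day), P4 and P14 (days after birth). A second set of 7 libraries came from SAN at E12.5, and all 7 carried Hcn4-GFP and Isl1 alleles flanked by loxP sites on both chromosomes (Isl1 fl/fl), with tamoxifen injected at E10.5. In that set, 4 libraries labelled CreNeg had no Cre, and 3 labelled CrePos also carried CAG-Cre/Esr1, a Cre that tamoxifen activates and that a broadly active promoter drives, so that it is not limited to the SAN. Since no label says which animal a library came from, the spread behind each p-value may be in part technical.

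Wnt proteins are secreted, lipid-modified signals that bind Frizzled receptors together with Lrp5 or Lrp6, which stabilises beta-catenin and lets it switch on genes with Lef1 and Tcf7, or together with Ror receptors, which act without beta-catenin. R-spondins bound to Lgr receptors keep Frizzled proteins on the cell surface, secreted Frizzled-related proteins (Sfrp1 to Sfrp5 and Frzb) and Wif1 bind Wnt proteins outside the cell, and Dkk1 and Dkk2 block the Lrp co-receptors. In the embryonic heart, Wnt signalling is known to act at the venous pole, where the SAN forms, and Axin2 is a widely used readout of beta-catenin signalling because it is itself switched on by it.

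The promoters of Fzd7 and Axin2 are shown because these genes were among those that differed both between SAN and RA and in the E12.5 set. Each line gives the 250 bases before the annotated start, 5' to 3' on the gene's strand, from RefSeq on GRCm38.p6, a later build than the one named for the deposited values. Capitals mark a match to the Lef1 and Tcf core CTTTGTT on either strand; CTTTGAT was searched too.
Fzd7, chr1:59481897-59482146, + strand: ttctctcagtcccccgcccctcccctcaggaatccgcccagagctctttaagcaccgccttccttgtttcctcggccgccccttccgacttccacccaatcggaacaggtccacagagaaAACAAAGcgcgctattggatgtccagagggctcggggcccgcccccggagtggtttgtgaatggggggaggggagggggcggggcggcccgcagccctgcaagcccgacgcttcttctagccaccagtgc
Axin2, chr11:108920099-108920348, + strand: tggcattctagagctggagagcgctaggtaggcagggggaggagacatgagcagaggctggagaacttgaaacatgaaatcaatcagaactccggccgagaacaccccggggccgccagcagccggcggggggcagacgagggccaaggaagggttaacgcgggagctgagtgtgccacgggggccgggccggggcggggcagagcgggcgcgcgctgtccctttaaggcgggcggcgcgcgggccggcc
The Fzd7 window held 1 match, read on the minus strand and beginning 130 bases before the start, 65.2% G or C and 17 CpG pairs. The Axin2 window held no match to these letters, 69.2% G or C and 24 CpG pairs. Over 32851 RefSeq promoters of this length, 5.03% held CTTTGTT and 3.21% held CTTTGAT. Among the 29 of 42 genes with a promoter in that table (36 promoters), CTTTGTT occurred in Fzd7 and Dkk1 and CTTTGAT in Wnt5b and Wnt11. A match is a string of letters in this window and was not tested as a binding site.

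Values are given in CPM, here the deposited scaled counts after division by a single number that puts the average library on the usual counts-per-million scale. Recovered read totals ran from 5101711 to 17997497 in the tissue and stage set and from 45298052 to 88020473 in the E12.5 set, so a gene at 0 may still have held up to 3 reads, which is 0.185 to 0.646 CPM in the first set and 0.0247 to 0.053 CPM in the second. These limits cover counting error only, because amplified reads are not independent molecules. All 10 SAN markers (Hcn4, Isl1, Shox2 and others) were higher in SAN at every stage, with sums of 3785 to 8586 CPM in SAN and 216 to 331 CPM in RA. SAN E14.5 replicate 1 and CrePos replicate 2 stood apart by ventricular Myl2: SAN E14.5 replicate 1 had 829 CPM and CrePos replicate 2, marked as an outlier in its title and left out of the comparison, had 1032 CPM, against at most 24.5 CPM in the other 17 libraries of the tissue and stage set. Tests used limma on log2(CPM + 1) over all genes that reached 1 CPM in 3 or more libraries (2 or more in the E12.5 set). A gene was called when its Benjamini-Hochberg adjusted p over all genes tested was under 0.05. Of the 42 genes, 35 were tested in the tissue and stage set, and Dkk1, Dkkl1, Fzd9, Fzd10, Lgr5, Wif1 and Wnt16 were too low.

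Between SAN and RA, averaged over the 3 stages, genes of every role but the Lrp and Ror receptors were called. The receptor Fzd7 and the inhibitors Sfrp1, Sfrp5 and Dkk2 were higher in SAN, as were Fzd1, the ligand Wnt5a, the feedback gene Axin2 and the transcription factor Lef1. Dkk3 and the R-spondin receptor Lgr4 were lower in SAN. That made 10 of 35 tested genes called (28.6%), 8 higher and 2 lower, where 11.5% of all 17568 genes were called (6.11% higher and 5.36% lower). The median log2 difference was 0.25 over the 35 and -0.01 over all genes. All 10 were called when any 1 library was left out, by edgeR and by DESeq2.

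**Figure D1:**
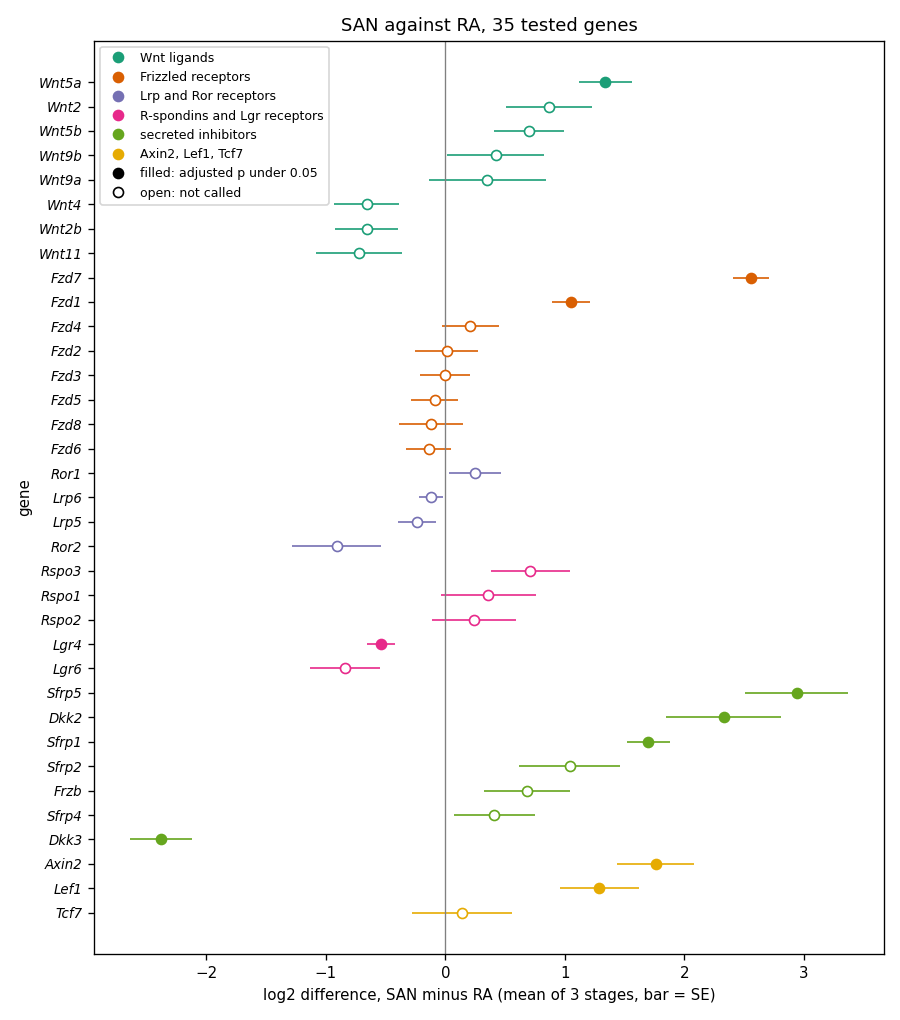
Log2 difference between SAN and RA (mean of 3 stages, 9 libraries each, bars are SE) for the 35 tested genes, grouped by role; filled points are called at an adjusted p under 0.05. Fzd7 (2.56) and Sfrp5 (2.94) lie farthest to the right and Dkk3 (-2.38) farthest to the left, while the Lrp and Ror receptors stay near 0 or have wide bars.

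Fzd7, a receptor used in both beta-catenin and planar polarity signalling, stood at 257, 312 and 189 CPM in SAN at E14.5, at 231, 312 and 185 at P4 and at 109, 150 and 138 at P14. In RA it stood at 28.8, 27.8 and 40.3 CPM at E14.5, at 32.1, 42.3 and 52.5 at P4 and at 32.9, 19.9 and 27.5 at P14. Every SAN library lay above every RA library of any stage. The log2 difference was 2.56 ± 0.15 (SE; adjusted p = 5.3e-11) over the stages, and 2.92 ± 0.26, 2.49 ± 0.26 and 2.28 ± 0.26 at E14.5, P4 and P14, each called.

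Fzd1, its close relative, overlapped between the tissues at E14.5, with 40.6, 52.4 and 55.0 CPM in SAN and 40.0, 66.9 and 44.2 in RA. At P4 it reached 147, 230 and 154 CPM in SAN against 32.2, 49.2 and 51.0 in RA, and at P14 71.4, 83.3 and 132 against 31.5, 49.6 and 40.0. The groups did not overlap after birth, and the log2 difference was -0.01 ± 0.28 (adjusted p = 1) at E14.5, 1.98 ± 0.28 (adjusted p = 5.8e-05) at P4 and 1.19 ± 0.28 (adjusted p = 0.014) at P14. The P14 call was lost without RA replicate 1 (adjusted p = 0.085) or SAN replicate 3 (0.097). The other 6 tested Frizzled genes, Fzd2, Fzd3, Fzd4, Fzd5, Fzd6 and Fzd8, had log2 differences between -0.14 and 0.21 over the stages and were not called. Per kilobase of exon, Fzd7 was the second of the 42 genes in SAN at E14.5 (55.8 ± 13.5 CPM per kilobase, SD, n = 3) after Sfrp1 (98.2 ± 24.6), and in RA at that stage the first was Dkk3 (93.5 ± 11).

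Among the ligands, Wnt5a, which mostly signals without beta-catenin, was the one called over the stages. It stood at 177, 215 and 133 CPM in SAN at E14.5 against 72.3, 101 and 101 in RA, at 234, 98.3 and 87.0 at P4 against 22.7, 37.0 and 19.2, and at 68.6, 82.1 and 79.0 at P14 against 56.7, 19.7 and 66.2. SAN lay above RA in every library at each stage. Its log2 difference was 1.34 ± 0.22 (adjusted p = 0.00017) over the stages and 2.27 ± 0.38 (adjusted p = 0.00043) at P4; at E14.5 (0.92 ± 0.38, adjusted p = 0.21) and P14 (0.84 ± 0.38, adjusted p = 0.28) it was not called.

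The remaining ligands were low, at or under 37.0 CPM in every library of this set. Of the 7 that were tested, Wnt2, Wnt2b and Wnt5b were each called at 1 stage, and Wnt4, Wnt9a, Wnt9b and Wnt11 at none. Wnt2, a ligand of the second heart field and lung, was at 7.16, 8.26 and 10.2 CPM in SAN at E14.5 and at 1.01, 0.553 and 0 in RA, a log2 difference of 2.69 ± 0.62 (adjusted p = 0.0088) that was lost without RA replicate 3 (0.053) and under edgeR (0.18). Wnt2b, its relative, was the reverse at that stage, with 2.82, 10.8 and 8.83 CPM in SAN and 30.4, 37.0 and 22.6 in RA. The log2 difference of Wnt2b was -2.0 ± 0.46 (adjusted p = 0.0093), and it was not called without SAN replicate 1 (0.088) or RA replicate 2 (0.062). Wnt5b was called at P14 only (1.96 ± 0.51, adjusted p = 0.027), with 4.26, 12.4 and 2.88 CPM in SAN and 1.46, 0.0892 and 0.738 in RA, and was lost without SAN replicate 2 (0.15), RA replicate 2 (0.15) or RA replicate 3 (0.069) and under edgeR (0.081).

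Of the 7 tested secreted inhibitors, 3 were higher and 1 was lower in SAN over the stages. Sfrp1, which binds Wnt proteins outside the cell, stood at 321, 536 and 430 CPM in SAN at E14.5, at 208, 338 and 198 at P4 and at 220, 271 and 221 at P14. In RA it stood at 93.6, 123 and 184 CPM, at 39.2, 102 and 99.4 and at 70.4, 76.2 and 67.5. Every SAN library was above every RA library of any stage, and the log2 difference was nearly the same at each: 1.70 ± 0.31, 1.69 ± 0.31 and 1.71 ± 0.31, all called, and 1.70 ± 0.18 over the stages (adjusted p = 3.3e-07).

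Sfrp5, a relative of Sfrp1 known from the venous pole of the heart, varied more between libraries. In SAN it stood at 5.35, 10.4 and 32.9 CPM at E14.5, at 76.3, 51.4 and 13.2 at P4 and at 45.3, 56.4 and 70.7 at P14, and in RA at 0.902, 3.32 and 3.47, at 1.93, 2.20 and 4.09 and at 8.18, 0.356 and 12.6. SAN and RA did not overlap at any stage, although the SAN libraries of E14.5 and P4 spanned several-fold ranges. The log2 difference was 2.94 ± 0.43 (adjusted p = 4e-05) over the stages, 3.41 ± 0.74 (adjusted p = 0.0053) at P4 and 3.38 ± 0.74 (adjusted p = 0.0081) at P14; the P14 call was lost without RA replicate 2 (0.072) and under edgeR (0.072). At E14.5 the log2 difference of 2.02 ± 0.74 was not called (adjusted p = 0.14).

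Dkk2, a blocker of Lrp co-receptors, was at 19.7, 12.1 and 10.03 CPM in SAN at E14.5 and at 2.14, 0 and 0.0892 in RA. At P4 its SAN libraries ranged from 0 to 18.9 CPM and at P14 from 0.800 to 14.5, against at most 0.891 in RA. The difference was called over the stages (2.33 ± 0.48, adjusted p = 0.0019) and at E14.5 (3.26 ± 0.83, adjusted p = 0.02), where it was lost without SAN replicate 1 (0.096), SAN replicate 2 (0.059), RA replicate 2 (0.11) or RA replicate 3 (0.081), and under edgeR (0.18) and DESeq2 (0.17). It was not called at P4 or P14.

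Dkk3, a Dkk relative that does not act as a clear Lrp blocker, went the other way. In RA it stood at 338, 333 and 271 CPM at E14.5, at 1223, 1094 and 1034 at P4 and at 1278, 1426 and 1241 at P14, and in SAN at 65.4, 114 and 315, at 61.6, 68.0 and 258 and at 180, 393 and 183. The groups overlapped at E14.5, where SAN replicate 3 reached the RA range, and were far apart after birth. For Dkk3 the log2 difference was -1.22 ± 0.46 (adjusted p = 0.14) at E14.5, -3.43 ± 0.46 (adjusted p = 2.4e-05) at P4 and -2.48 ± 0.46 (adjusted p = 0.0016) at P14. Per kilobase of exon, Dkk3 was first of the 42 genes in RA at P14, at 392 ± 29.1 CPM per kilobase (SD, n = 3), where the next was Sfrp2 at 22.7 ± 7.26. Sfrp2, Sfrp4 and Frzb had positive log2 differences over the stages (1.04, 0.41 and 0.68) and were not called.

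**Figure D2:**
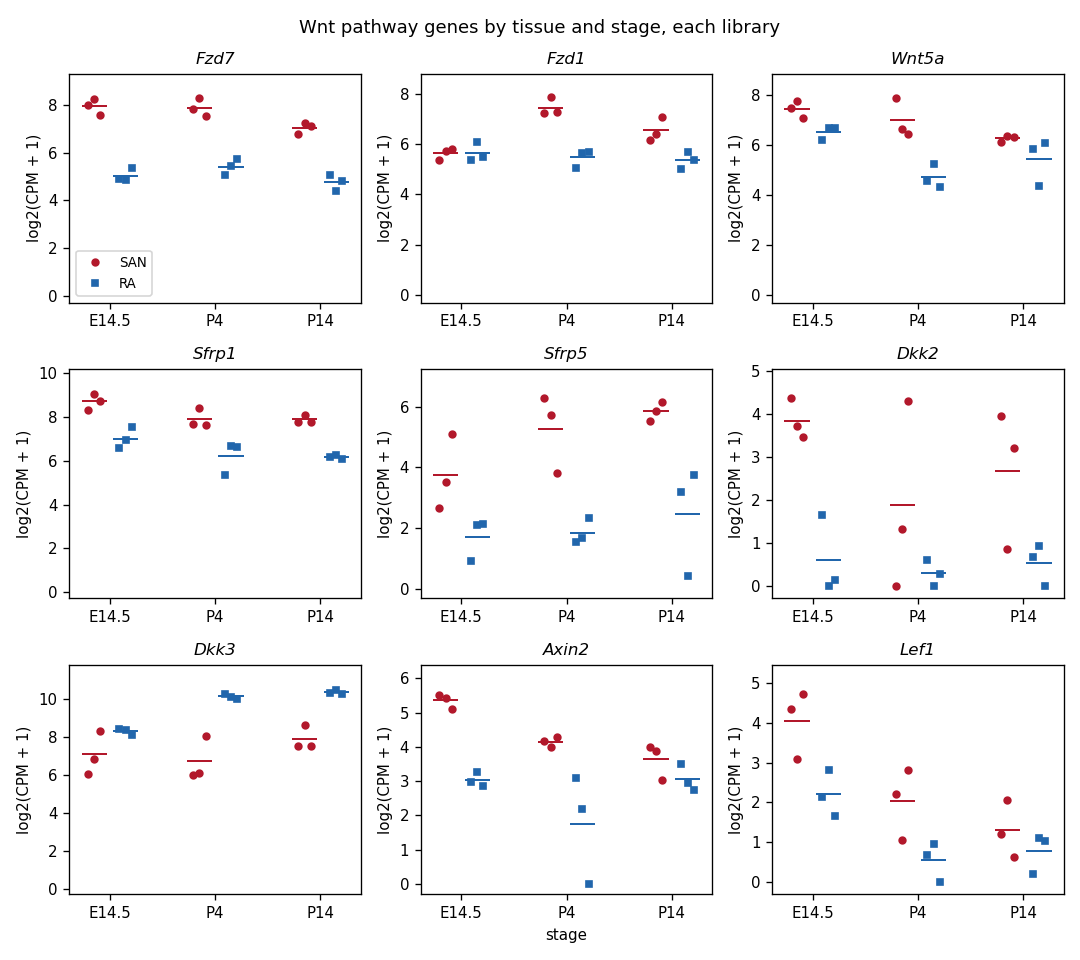
Level of 9 genes in each library, as log2(CPM + 1), by stage and tissue; each point is a library and each line a group mean of 3. Fzd7 and Sfrp1 are higher in every SAN library than in any RA library, Fzd1 separates at P4 and P14, and Axin2 and Lef1 decline in SAN from E14.5.

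The 4 Lrp and Ror receptors did not pass the test over the stages in limma, edgeR or DESeq2, and 1 of them, Ror2, had an unadjusted limma p under 0.05. The co-receptor Lrp6 lay between 176 and 353 CPM in all 18 libraries, with a log2 difference of -0.12 ± 0.10 (adjusted p = 0.58), and Lrp5 lay between 26.7 and 75.3 (-0.24 ± 0.16, adjusted p = 0.41). Ror1, a receptor for Wnt5a, was called at P14 (1.36 ± 0.38, adjusted p = 0.043), where SAN stood at 41.7, 21.6 and 23.5 CPM and RA at 15, 6.77 and 10.3. That call was lost without SAN replicate 1 (0.20), SAN replicate 3 (0.069), RA replicate 2 (0.22) or RA replicate 3 (0.098), with equal upper quartiles (0.081), without the filter (0.056) and under edgeR (0.085).

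Lgr4, a receptor for R-spondins, was lower in SAN by a small margin: 66.8, 72.5 and 93.3 CPM against 110, 108 and 99.6 in RA at E14.5, 50.5, 38.9 and 54.9 against 81.6, 83.9 and 74.0 at P4, and 40.6, 44.9 and 42.2 against 69.7, 47.4 and 57.4 at P14. Each SAN library lay under each RA library of its stage. The log2 difference was -0.54 ± 0.12 (adjusted p = 0.0048) over the stages; at P4 it was -0.73 ± 0.21 (adjusted p = 0.043), and that call was lost without any 1 of 5 of the 6 libraries (adjusted p up to 0.19), with equal upper quartiles (0.065) and under edgeR (0.089). Lgr6, a relative, was lower in SAN at P4, with 6.6, 0.701 and 5.13 CPM against 15.5, 16.1 and 36.8 in RA (-2.36 ± 0.51, adjusted p = 0.0048). At E14.5 the Lgr6 values were low in both tissues, at 2.89 to 4.32 CPM in SAN and 0.553 to 1.25 in RA (1.36 ± 0.51, adjusted p = 0.14). DESeq2 called Lgr6 as higher in SAN at that stage and edgeR did not. At P14 every SAN library was again under every RA library, at 21.6, 37.2 and 18.8 CPM against 75.6, 79.5 and 65.1. That difference was called under DESeq2 but not under edgeR or by limma, where the unadjusted p was under 0.05.

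Rspo1, an R-spondin, was lower in SAN at E14.5, with 0, 1.6 and 8.03 CPM against 23.3, 18.1 and 26.2 in RA (log2 difference -3.02 ± 0.70, adjusted p = 0.0097). The call was lost without SAN replicate 1 (adjusted p = 0.095), the library with high Myl2, under edgeR (0.24) and under DESeq2 (0.095). The epicardial and mesothelial marker Upk3b moved with these values: it was at 0.0723, 27.0 and 101 CPM in the same SAN libraries and at 98.7, 114 and 162 in RA. Of the 11 markers of that list, 10 had a lower mean log2 level in SAN than in RA at E14.5, with 2 called, and Tbx18, which is also one of the 10 SAN markers, was called as higher. Summed over the other 10 markers, a sum chosen after seeing the data, SAN had 17.7, 96.7 and 309 CPM and RA 411, 406 and 493; with Tbx18 the sums were 308 to 564 in SAN and 494 to 595 in RA. The part of epicardial cells in the Rspo1 and Wnt2b values was not tested. In bulk tissue, fewer cells of a type and less RNA per cell cannot be told apart.

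Axin2, the negative-feedback gene of the pathway, was at 45.3, 42.4 and 33.6 CPM in SAN at E14.5 against 6.88, 8.66 and 6.23 in RA. It was at 16.9, 15 and 18.6 against 7.53, 3.56 and 0 at P4, and at 15, 13.9 and 7.20 against 10.4, 6.77 and 5.76 at P14. The tissues did not overlap at E14.5 and P4 and did at P14. For Axin2 the log2 difference was 1.76 ± 0.32 (adjusted p = 0.0005) over the stages, 2.33 ± 0.55 (adjusted p = 0.012) at E14.5, 2.39 ± 0.55 (adjusted p = 0.0087) at P4 and 0.57 ± 0.55 (adjusted p = 0.71) at P14. The E14.5 call was lost without SAN replicate 1 (0.059) or replicate 2 (0.054), and the P4 call under edgeR (0.058).

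Lef1, a transcription factor that works with beta-catenin, was at 19.3, 7.58 and 25.2 CPM in SAN at E14.5 and at 3.38, 6.08 and 2.14 in RA. At P4 and P14 it was at or under 6.09 CPM in every library. Lef1 was called over the stages (1.29 ± 0.33, adjusted p = 0.011) and at no single stage (adjusted p = 0.065, 0.15 and 0.75). Tcf7, its relative, was at or under 7.12 CPM in all 18 libraries and was not called (0.14 ± 0.42, adjusted p = 0.90).

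By stage, 7 of 35 genes were called at E14.5 (20%, against 5.33% of all genes), 9 at P4 (25.7% against 5.96%) and 7 at P14 (20% against 4.55%). The split was 5 higher and 2 lower at E14.5 (2.24% and 3.09% of all genes), 6 and 3 at P4 (2.97% and 2.99%), and 6 and 1 at P14 (3.21% and 1.34%). Without SAN replicate 1, 3 genes were called at E14.5, and without RA replicate 2, 4 were called at P14. The comparisons at the 3 stages and the one over the stages share libraries.

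Of the other pathway genes, Tnfrsf19, a target of beta-catenin signalling, had the smallest p in the comparison over the stages, with 89.7 ± 38.7 CPM in SAN and 21.4 ± 13.2 in RA (SD, n = 9 each; log2 difference 2.14 ± 0.22, adjusted p = 3e-07). It was called at each stage, although at E14.5 the call was lost without any 1 of 5 of the 6 libraries (adjusted p up to 0.16). The counts by list that follow stand beside 6.11% higher and 5.36% lower over all genes. In the list of 17 tested target genes, 2 were higher in SAN (Tnfrsf19 and Znrf3) and 3 lower, Fn1, Wisp1 and Dusp6, with Fn1, a matrix protein, at -1.29 ± 0.22 (adjusted p = 0.00023). Of 13 tested extracellular modulators, 3 were higher and 1 lower. Gpc3, a glypican that binds Wnt proteins, was at 1.38 ± 0.23 (adjusted p = 0.00023) and Sost, an Lrp inhibitor, at -1.72 ± 0.39 (adjusted p = 0.0043). Sost was low, at 23.9 CPM in RA P4 replicate 3 and at or under 7.66 in the rest of this set, and DESeq2 gave it no adjusted p. Of the higher modulators, Sostdc1 was lost under edgeR and under DESeq2 (0.095 for DESeq2 alone) and Znrf3 without RA P14 replicate 1 (0.052). Sostdc1 was near the floor, at 0 CPM in all libraries of E14.5 and of RA at P4 and at or under 7.76 in the rest. The list of 19 genes named planar polarity genes here also holds genes of Wnt calcium signalling, Nfatc1 and Plcb1 among them. Of that mixed list, 2 were higher and 2 lower, with Nfatc1 at -1.12 ± 0.22 (adjusted p = 0.0013) and Plcb1 at 1.28 ± 0.29 (adjusted p = 0.0043). Nfatc1 is also one of the 14 endothelial and endocardial markers, of which 9 were lower in SAN, with sums of 658 to 1826 CPM in SAN and 2077 to 3122 in RA. Of 12 nuclear factors 1 was called (8.33%), Tcf7l2, lower in SAN at -1.0 ± 0.18 (adjusted p = 0.00039), and of 19 destruction complex and transduction genes 1 (5.26%), Tnks, at -0.55 ± 0.11 (adjusted p = 0.0018), both shares under the 11.5% of all genes. The median log2 differences of the 4 lists of extracellular modulators, transduction genes, nuclear factors and planar polarity genes lay between -0.08 and 0.09.

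From E14.5 to P14, 3 of the 7 tested inhibitors rose in SAN, and Axin2 and Lef1 fell along with some receptors and ligands. Sfrp4, Frzb and Sfrp5 rose together with the co-receptors Lrp5 and Lrp6, Fzd1, Lgr6, Rspo1 and Wnt9a, and Lef1, Axin2, Lgr4, Fzd7, Fzd3, Wnt5a and Wnt11 fell. The inhibitor with the highest level in SAN at E14.5, Sfrp1, went down, from a mean of 429 CPM to 237 CPM. It was not called, with an unadjusted limma p under 0.05. In all, 16 of 35 genes were called (45.7%), 9 up and 7 down, where 24.3% of all genes were called (9.74% up and 14.5% down). The median change was -0.17 over the 35 and -0.18 over all genes. Only 5 of the 16 calls, Sfrp4, Lgr6, Frzb, Lef1 and Lgr4, were kept when each of the 6 libraries was left out, and those 5 were also called by edgeR and DESeq2 and with libraries scaled to equal upper quartiles. The other 11 were each lost without at least 1 of the 6 libraries (adjusted p up to 0.22), and Lrp6, Sfrp5, Wnt5a and Wnt11 without any 1 of 5 of them. Rspo1 (0.21), Sfrp5 (0.082), Wnt11 (0.25), Wnt5a (0.078) and Fzd3 (0.071) were also lost under edgeR. Of these, Rspo1 (0.14), Sfrp5 (0.092) and Wnt11 (0.18) were lost under DESeq2 too.

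Scaling to equal upper quartiles moved the median change of all genes from -0.18 to -0.07 in SAN, from -0.37 to -0.11 in RA and from -0.42 to -0.03 in the E12.5 comparison. Changes relative to the median of all genes are therefore given for Fzd7 in SAN and for Wnt5a, Sfrp2, Axin2 and Fzd7 in the E12.5 set. All other changes, those in RA among them, are on the deposited scale and include the shift of that median.

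Sfrp4 was near the detection limit in SAN at E14.5, at 0, 0.185 and 0 CPM, and reached 28.7, 12 and 17.8 CPM at P14. In RA all 3 libraries of E14.5 were at 0, and P14 stood at 9.35, 4.1 and 17.6. Neither tissue's stages overlapped. The SAN log2 change was 4.19 ± 0.59 (adjusted p = 1.8e-05), and the RA mean was at least 18.7-fold higher at P14 than at E14.5, taking 3 reads in the shallowest of the libraries at 0 as the floor (adjusted p = 0.00025). Frzb, also called Sfrp3, went from 1.45, 2.84 and 2.11 CPM to 19.9, 19.9 and 8.24 in SAN (2.37 ± 0.62, adjusted p = 0.0072). Fibroblast markers moved in the same direction: summed over 14 markers, SAN went from 3032 to 5823 CPM at E14.5 to 20300 to 23560 at P14, and RA from 2565 to 3111 to 9270 to 11860, with 10 and 12 of the 14 called as higher. The part of fibroblasts in the Sfrp4 and Frzb values was not tested.

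Lef1 fell in SAN from 19.3, 7.58 and 25.2 CPM to 1.31, 3.20 and 0.560 (-2.75 ± 0.57, adjusted p = 0.0012), with no overlap. Axin2 fell by 1.72 ± 0.55 on the log2 scale (adjusted p = 0.026), from 33.6 to 45.3 CPM at E14.5 to 7.2 to 15 at P14. The Axin2 groups did not overlap either, but the call was lost without SAN E14.5 replicate 1 (0.083), E14.5 replicate 2 (0.075) or P14 replicate 3 (0.11), and under edgeR (0.089). In RA, Axin2 changed by 0.04 ± 0.55 (adjusted p = 0.97) and Lef1 by -1.42 ± 0.57 (adjusted p = 0.078). The difference between tissues in these changes was not called for Axin2 (-1.76 ± 0.78, adjusted p = 0.29) or Lef1 (-1.32 ± 0.81, adjusted p = 0.49).

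Fzd7 in SAN fell from 189 to 312 CPM to 109 to 150 (-0.91 ± 0.26, adjusted p = 0.014), a change of -0.73 relative to the median of all genes. This call was lost without SAN E14.5 replicate 2 (0.084) or P14 replicate 1 (0.067), and under edgeR (0.058). Lgr4 fell in SAN from 66.8 to 93.3 CPM to 40.6 to 44.9 (-0.84 ± 0.21, adjusted p = 0.0059) and in RA from 99.6 to 110 to 47.4 to 69.7 (-0.87 ± 0.21, adjusted p = 0.0051). In RA, the Lgr4 call was lost with equal upper quartiles (-0.55, adjusted p = 0.081), under edgeR (0.14) and under DESeq2 (0.098). Lrp5 rose in SAN from 26.7 to 31.2 CPM to 49.8 to 75.3 (0.97 ± 0.27, adjusted p = 0.011), which was lost without SAN P14 replicate 2 (0.06).

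In RA over the same interval, 14 of 35 genes were called (40%), 4 up and 10 down, against 22.7% of all genes (5.99% up and 16.7% down). The median change was -0.30 over the 35 and -0.37 over all genes. With equal upper quartiles the calls were 6 up and 4 down, and under edgeR and DESeq2 6 up and 3 down, so the excess of falling genes depended on the scaling. Over all genes that scaling gave 1556 up and 1683 down, against 1052 up and 2936 down on the deposited scale. Dkk3, Fzd8, Lgr6, Ror1, Sfrp4 and Wnt2b were called in RA under each of these settings and with each library left out.

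On the log2(CPM + 1) scale Lgr6 had the largest change in RA, where the change of Sfrp4 is known only by its lower bound. Lgr6 went from 0.677, 0.553 and 1.25 CPM at E14.5 through 15.5, 16.1 and 36.8 at P4 to 75.6, 79.5 and 65.1 at P14. In SAN it went from 2.89, 4.32 and 3.81 CPM through 6.6, 0.701 and 5.13 to 21.6, 37.2 and 18.8. The stages E14.5 and P14 did not overlap in either tissue. The log2 changes were 5.36 ± 0.51 in RA (adjusted p = 1.4e-07) and 2.47 ± 0.51 in SAN (adjusted p = 0.001).

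Dkk3 rose in RA from 271 to 338 CPM to 1241 to 1426 (2.07 ± 0.46, adjusted p = 0.0021), and Fzd6 from 21.0 to 30.4 CPM to 47.0 to 65.6 (1.18 ± 0.33, adjusted p = 0.014). The Fzd6 call was lost without RA E14.5 replicate 3 (0.057) or P14 replicate 3 (0.052). Ror1 fell in RA from 43.3, 49.9 and 19.9 CPM to 15, 6.77 and 10.3 (-1.69 ± 0.38, adjusted p = 0.0026). Fzd8, a receptor, fell from 15.9, 28.2 and 21.0 CPM to 4.09, 6.06 and 3.69 (-2.0 ± 0.46, adjusted p = 0.003). Wnt2b fell from 30.4, 37.0 and 22.6 CPM to 7.45, 4.90 and 8.71 (-1.96 ± 0.46, adjusted p = 0.0034). None of these groups overlapped. Of the other falling genes in RA, Ror2, Fzd3, Wnt4, Wnt5a and Rspo3 were each lost without any 1 of 4 or 5 of the 6 libraries (adjusted p up to 0.31), with equal upper quartiles, under edgeR and under DESeq2, and Rspo1 under edgeR (0.17) and DESeq2 (0.081).

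**Figure D3:**
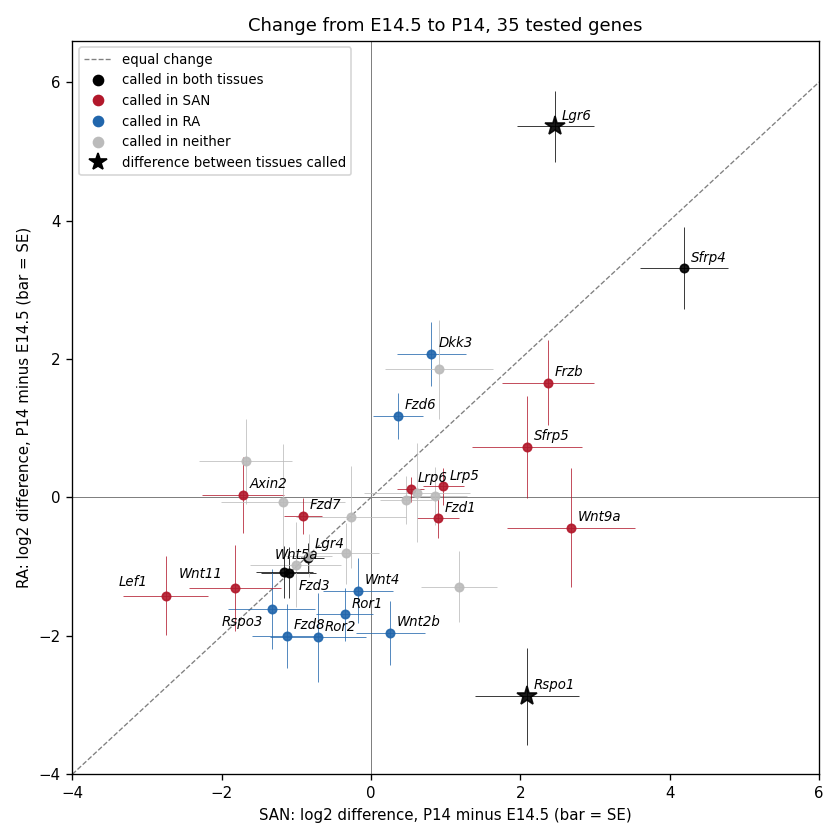
Log2 change from E14.5 to P14 in SAN (horizontal) and RA (vertical) for the 35 tested genes, bars are SE and the dashed line marks equal change. Lgr6 (2.47 in SAN, 5.36 in RA) lies above the line and Rspo1 (2.09 in SAN, -2.87 in RA) below it; these are the 2 genes whose difference between tissues was called.

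The change between E14.5 and P14 differed between the tissues for 2 of 35 genes (5.71%, 1 higher and 1 lower), against 2.27% of all genes (1.64% and 0.632%). Rspo1 went from 0, 1.6 and 8.03 CPM through 2.75, 5.61 and 5.92 to 9.57, 18.1 and 7.92 in SAN, while in RA it went from 23.3, 18.1 and 26.2 CPM through 0.203, 0.524 and 0 to 4.53, 0 and 4.87. SAN at P14 was above RA at P14 in every library, the reverse of E14.5. The difference of the changes was 4.96 ± 0.99 on the log2 scale (adjusted p = 0.0089) and was called when any 1 library was left out (adjusted p up to 0.032), but not under edgeR (4.61, adjusted p = 0.19) or DESeq2 (4.63, adjusted p = 0.052). The epicardial and mesothelial markers moved alongside, all 11 with a positive difference of the changes and 2 of them called. Without Tbx18 their sums went in SAN from 17.7, 96.7 and 309 CPM at E14.5 through 150, 248 and 290 at P4 to 274, 327 and 369 at P14, and in RA from 411, 406 and 493 through 69.0, 191 and 155 to 122, 59.5 and 158. Tbx18 itself fell in SAN, from 255 to 290 CPM at E14.5 to 100 to 119 at P14, so that the sums of all 11 changed less there, from 308 to 564 to 377 to 488. Their part in the Rspo1 result was not tested. For Lgr6 the difference was -2.89 ± 0.72 (adjusted p = 0.034); it was lost without any 1 of 10 of the 12 libraries (adjusted p up to 0.083) and was called under edgeR (-3.77, adjusted p = 0.026) and DESeq2 (-3.76, adjusted p = 0.00044).

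Among the other pathway genes, Gpc3 fell in both tissues between E14.5 and P14, from 609 ± 120 to 48.7 ± 18.7 CPM in SAN (SD, n = 3; -3.66 ± 0.40, adjusted p = 1e-06) and from 434 ± 41.6 to 21.5 ± 11.6 in RA (-4.46 ± 0.40, adjusted p = 6.7e-08). Gpc1, another glypican, went from 58.1 ± 10.3 to 232 ± 37.8 CPM in RA (1.98 ± 0.22, adjusted p = 1.2e-06), and the difference between the tissues was called (-2.06 ± 0.31, adjusted p = 0.00087). In SAN, Nkd2, which binds and antagonises Dishevelled, rose (3.68 ± 0.61, adjusted p = 0.00011), Ctnnb1, which encodes beta-catenin, fell (-0.85 ± 0.16, adjusted p = 0.00034), and Vangl2, a planar polarity gene, fell (-2.02 ± 0.45, adjusted p = 0.002). These 3 were called under every alternative run. So were the rises in SAN of Tinagl1 (2.26) and Cpz (3.2), from a list headed Wnt secretion that the counts below leave out. Wisp2, a target at 0 CPM in every SAN library of E14.5, also rose under every alternative in SAN (5.44) and in RA (3.11). In RA, Bcl9, a beta-catenin coactivator, fell (-1.87 ± 0.29, adjusted p = 6.3e-05), Apc2 rose (2.33 ± 0.50, adjusted p = 0.0016) and Tnfrsf19 fell (-2.13 ± 0.38, adjusted p = 0.0003), again under every alternative. Over all genes, 9.74% rose and 14.5% fell in SAN and 5.99% and 16.7% in RA. By list, SAN had 3 of 13 extracellular modulators up and 2 down, 1 of 19 transduction genes up and 3 down, 1 of 19 planar polarity genes up and 4 down, 0 of 12 nuclear factors up and 1 down, and 3 of 17 targets up and 3 down. In SAN, 21.1% of the transduction genes and 26.3% of the planar polarity genes were called, near the 24.3% of all genes. In RA, 2 extracellular modulators rose and 3 fell, 1 transduction gene rose and 6 fell, 2 planar polarity genes and 3 nuclear factors fell, and 2 targets rose and 4 fell. Of these RA falls, Gpc4, Apc, Ctnnb1, Fam123b, Btrc, Tle2, Tle4 and Dusp6 were lost under edgeR, under DESeq2 and with equal upper quartiles. Vangl2 in RA was lost under edgeR and with equal upper quartiles, and Fgf9 under edgeR. The fall of Dvl3 in SAN was lost under edgeR, under DESeq2 and with equal upper quartiles.

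In the E12.5 set, the Isl1 transcript was first read in every library. It stood at 67.4, 88.5, 47.8 and 83.2 CPM in CreNeg and at 71.7, 2.85 and 53.9 in CrePos replicates 1, 2 and 3. The 2 CrePos libraries compared here thus lay within the CreNeg range. The labels do not say which part of Isl1 the alleles flank, and counts over the whole gene do not check a deletion of one part, so the groups are named below by their labels. Other SAN markers were lower in the 2 libraries labelled CrePos: Hcn4 was at 108 and 81.1 CPM against 214 to 247, and 5 of 10 SAN markers were called as lower, where 1.32% of all genes were.

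In this comparison (4 CreNeg against CrePos replicates 1 and 3), Wnt5a, Fzd7, Fzd1, Axin2 and Sfrp2 were lower and Dkk3 was higher in the libraries labelled CrePos. That is 6 of 33 tested genes (18.2%), 1 higher and 5 lower, against 2% of all 14595 genes (0.678% and 1.32%). The median log2 difference was -0.67 over the 33 and -0.42 over all genes. The count rested on few libraries: it was 3 without CrePos replicate 1 and 0 without CrePos replicate 3 (limma, 9 genes with an unadjusted p under 0.05), where the lone CrePos library is assumed to vary like the others. It was 2 under edgeR, Dkk3 and Sfrp5 (2 higher and 0 lower, with 13 at an unadjusted p under 0.05). Under DESeq2 it was 11 (3 higher and 8 lower), and with equal upper quartiles 4 (2 higher and 2 lower). Over all genes, equal upper quartiles gave 163 higher and 71 lower, against 99 and 193 on the deposited scale.

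Wnt5a stood at 119, 92.9, 96.1 and 131 CPM in CreNeg and at 37.8 and 34.2 in CrePos. The groups did not overlap, and CrePos replicate 2 was at 31.5. The log2 difference was -1.57 ± 0.24 (adjusted p = 0.0024), or -1.15 relative to the median of all genes, and the call was lost without CrePos replicate 3 (0.071) and under edgeR (-1.13, adjusted p = 0.052). Dkk3 stood at 88.4, 67.3, 40.8 and 49.3 CPM in CreNeg and at 211 and 196 in CrePos, with replicate 2 at 40.3, just under the lowest CreNeg library. Its log2 difference was 1.77 ± 0.29 (adjusted p = 0.0033), also called with equal upper quartiles (2.22), edgeR (2.23) and DESeq2 (2.24), but not without CrePos replicate 3 (0.097), without the filter (0.11) or with CrePos replicate 2 included (1.00, adjusted p = 0.21).

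Sfrp2 stood at 140, 61.2, 86.2 and 78.4 CPM in CreNeg and at 20.2 and 28.0 in CrePos (-1.83 ± 0.31, adjusted p = 0.004). Axin2 stood at 18.5, 27.1, 27.9 and 24 CPM in CreNeg and at 6.72 and 6.95 in CrePos (-1.68 ± 0.33, adjusted p = 0.015). Fzd7 stood at 103, 99.7, 101 and 126 CPM in CreNeg and at 53.3 and 40.4 in CrePos (-1.19 ± 0.24, adjusted p = 0.015). For all 3 the groups did not overlap, and the differences relative to the median of all genes were -1.41, -1.26 and -0.77. Axin2 and Sfrp2 were lost without CrePos replicate 1 (0.056 each) or replicate 3 (0.19 and 0.063), and Fzd7 without CreNeg replicate 4 (0.052) or CrePos replicate 3 (0.34). Under edgeR the 3 had adjusted p = 0.14 (Axin2), 0.11 (Sfrp2) and 0.16 (Fzd7). With equal upper quartiles Axin2 (0.083) and Fzd7 (0.098) were not called and Sfrp2 was (0.032), and without the filter none of Axin2 (0.091), Fzd7 (0.094) and Sfrp2 (0.12) was.

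**Figure D4:**
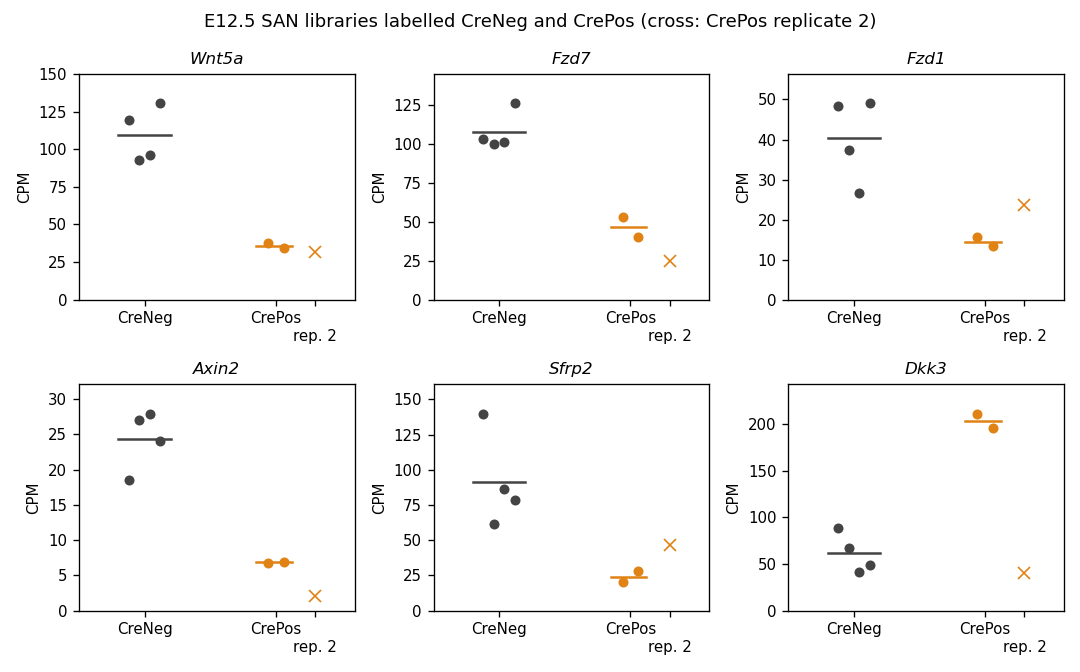
CPM of 6 genes in each E12.5 SAN library labelled CreNeg (4 points) or CrePos (2 points, with CrePos replicate 2 as a cross, which is left out of the means drawn as lines). Wnt5a, Fzd7, Fzd1, Axin2 and Sfrp2 lie lower and Dkk3 higher in CrePos replicates 1 and 3, while replicate 2 lies beside the lowest CreNeg value for Dkk3.

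Fzd1 averaged 40.4 ± 10.6 CPM in CreNeg (SD, n = 4) and 14.5 ± 1.54 in CrePos (n = 2), a log2 difference of -1.38 ± 0.31 (adjusted p = 0.034) that was lost without any 1 of 5 of the 6 libraries (adjusted p up to 0.49), with equal upper quartiles (0.12), without the filter (0.18) and under edgeR (0.19). Fibroblast markers were lower alongside, with 4 of 13 called (Pdgfra, Col1a2, Col1a1 and Col3a1) and sums of 2078 to 4831 CPM in CreNeg and 960 to 1528 in CrePos. The part of fibroblasts in these Wnt results was not tested. Of the other 27 tested genes, Wnt2 had the smallest p (-2.16 ± 0.56, adjusted p = 0.065), with 7.43, 15.1, 17.3 and 4.08 CPM in CreNeg and 2.64 and 0.543 in CrePos, followed by Sfrp5 (1.49 ± 0.40, adjusted p = 0.076), with 4.53 to 8.06 and 23.7 and 15. Sfrp5 was called as higher under both edgeR and DESeq2, and Wnt2 was called as lower under DESeq2 but not under edgeR. In the pathway lists 2 genes were called, Plcb1 (-1.58 ± 0.36, adjusted p = 0.035) and Id2, a target (-1.44 ± 0.34, adjusted p = 0.037); Plcb1 was lost under 10 of the 14 alternatives and Id2 under 9, among them edgeR (0.24 and 0.16), equal upper quartiles (0.19 and 0.082), no filter (0.21 and 0.20) and without CrePos replicate 3 (0.59 and 0.80).

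Set side by side, Wnt5a, Fzd7, Fzd1 and Axin2 were higher in SAN than in RA over the stages and lower in the libraries labelled CrePos, and Dkk3 was lower in SAN and higher in CrePos. Sfrp5, also called as higher in SAN over the stages, was instead higher in CrePos too. It averaged 19.3 CPM in CrePos replicates 1 and 3 against 6.17 CPM in CreNeg. That Sfrp5 difference was called under edgeR and DESeq2 but not by limma. Sfrp2, called in the E12.5 set, was not called between SAN and RA over the stages (1.04 ± 0.42, adjusted p = 0.13), and the difference between the sets was not tested. The 2 comparisons share no library. In the E12.5 set the sums of the 10 SAN markers were also lower, at 2213 to 2311 CPM in CreNeg and 920 to 1107 in CrePos. The share of all genes that went opposite ways in the 2 comparisons was not counted. Under edgeR, 0 of the lower genes of the E12.5 set were called. CrePos replicate 2, left out of the test, was under every CreNeg library for Wnt5a (31.5 CPM), Fzd7 (24.7), Fzd1 (23.6), Axin2 (2.12) and Sfrp2 (46.7) and also for Dkk3 (40.3), where the other CrePos libraries were higher. That library held 1032 CPM of ventricular Myl2 and the lowest Hcn4 of the E12.5 set (36.7 CPM). The part of the tissue sampled in its values was not tested.

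The 7 genes too low for testing in the tissue and stage set were near the limit of detection. Dkk1 had reads in 1 of 18 libraries (0.113 CPM in RA E14.5 replicate 1), and Fzd10 in 2, both SAN at E14.5. Fzd9 was at 1.08, 0.801 and 0.802 CPM in SAN at E14.5 and at or under 1.16 elsewhere, and Dkkl1 reached 2.76 CPM in RA at E14.5 and was at 0 in all P14 libraries. Wif1, an inhibitor that binds Wnt proteins, was at 10.9 CPM in SAN P14 replicate 2 and at or under 0.584 in the other 17. Lgr5 was at or under 0.980 CPM and Wnt16 at or under 2.53 in the 18 libraries. Expression under a few reads was not detectable at this depth.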

How the data were processed

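RNA from laser-captured mouse SAN and RA was amplified (single primer isothermal amplification) and sequenced without strand information, per the labels' protocols; overlapping genes therefore cannot be told apart. The authors deposited a table of scaled signal (20870 genes, 25 libraries); TopHat2 2.0.6, edgeR and build mm8 are named for it, per the submitters' processing notes. The annotation and the handling of reads that match several genes are not given in the sources used here. Within 0.1 of a read, at least 99.995% of the values above 0 in each library were whole multiples of one step, so whole reads were recovered. Levels are the deposited signal divided by 24.3 and called CPM.

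Tests used limma 3.58.1 in R 4.3.3 on log2(CPM + 1), its variance prior following mean expression, over 17568 genes in one fit of 6 group means (18 libraries) and 14595 genes in the E12.5 fit (4 CreNeg, 2 CrePos). Fold changes on this scale understate low genes. The count alternatives edgeR 4.0.16 and DESeq2 1.42.0 ran on recovered reads; other alternatives were pseudocounts of 0.25 and 4, no filter on low values, equal upper quartiles, a replicate block and each library left out. The test was run on simulated data with the same spread setting for every gene, scored for the comparison over the stages and the E12.5 comparison only. This does not check genes that vary more between libraries, nor the calls at single stages. The design had allowed for other units; these files needed the normalized-value test.

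Genes given with every library's value are up to 4 called genes per direction and comparison with the smallest p, without overlap and with a group mean of at least 2 CPM, plus, in the E12.5 set, the 4 genes with the smallest p; other genes are given in full where they complete a role, chosen after their values were seen. From each pathway list up to 2 genes per comparison are named. The members and lists were chosen with earlier results of these data known. Levels per kilobase use exonic lengths from GENCODE M21. The working atrium marker list is not reported here.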

Additional observations from a re-analysis of the deposited data

Results flagged for a closer look

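For 2 genes the change from E14.5 to P14 differed between SAN and RA by limma's test of that difference: Rspo1, by 4.96 on the log2 scale (adjusted p = 0.0089), and Lgr6, by -2.89 (adjusted p = 0.034). Among the 4 CreNeg libraries, 1 library lay far from the other 3 for 3 genes. Replicate 4 had 126 CPM of Fzd7, against 99.7 to 103 in the others. Replicate 1 had 170 CPM of Lrp6, against 102 to 112, and 2.07 CPM of Wnt4, against 0.156 to 0.371. Chance alone gives such a gap in about 1 in 20 groups, and 33 genes were examined.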

How the results depend on the processing

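No alternative reversed the direction of a called gene, and the 10 genes called between SAN and RA over the stages were 10 to 12 with each library left out. With 1 library left out at a time, the number called ranged from 3 to 8 at E14.5, 8 to 10 at P4, 4 to 7 at P14, 8 to 13 for the SAN change from E14.5 to P14, 9 to 11 for the RA change, 1 to 2 for the difference between these changes and 0 to 7 in the E12.5 set. The lowest SAN counts came without E14.5 replicate 2 (8), P14 replicate 1 (8), E14.5 replicate 1 (9) or P14 replicate 3 (10), and the lowest RA counts without E14.5 replicate 2 (9) or replicate 3 (9). Under edgeR the counts were 4 at E14.5, 4 at P14, 9 for SAN, 9 for RA, 1 for the difference and 2 in the E12.5 set, and under DESeq2 9 for RA and 11 in the E12.5 set. Without the filter 1 gene was called in the E12.5 set. The cause of these shifts was not tested, except that fewer samples were compared when a library was left out. Of 71 calls of single genes over the 8 comparisons, 33 were kept under every alternative and 38 were lost under at least 1.

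The labels do not say whether replicate numbers pair the samples. Deviations of same-numbered SAN and RA libraries correlated at -0.092 to 0.119, and 3 of 9 pairs matched their own number best. Such low correlations in groups of 3 cannot decide this, because variation of single libraries can hide a pairing. With the replicate block the counts were 11 over the stages, 7 at E14.5, 8 at P4, 7 at P14, 17 for SAN, 14 for RA, 2 for the difference and 10 in the E12.5 set. Depth limits what can be said of genes near 3 reads, and 2 CrePos libraries limit every E12.5 value.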
